A study of Homo sapiens with 4 samples.

Results

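The genes described here hold epithelial cells together. They are 30 genes of the tight junction (15), the adherens junction (6) and the desmosome (9), taken by symbol from the 20802 genes measured in HCT116, an established human colon cancer cell line. All 30 symbols were found in each of the 4 libraries. Messenger RNA was measured by amplicon sequencing, in which 1 short PCR target stands for each gene. The 4 groups were wild type HCT116 with DMF, wild type HCT116 with 1 mM indole, HCT116 overexpressing human IDO1 with DMF, and the same IDO1 line with 1 mM indole. Each treatment lasted 24 h, and DMF was the solvent control. These libraries are called WT-DMF, WT-indole, IDO1-DMF and IDO1-indole, and series of 4 values are given in that order. Gut bacteria make indole from tryptophan, the amino acid that IDO1 breaks down. Each group was represented by 1 library, whose file does not say whether it pools the replicates named in the design, so no pair of groups has a replicate check. How the IDO1 line was made, and whether it is 1 clone or a pool, is not given in the sources used here.

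Tight junctions seal the space between neighbouring epithelial cells. Claudins and the MARVEL proteins form their strands, and scaffolds such as ZO-1 tie the strands to actin. Adherens junctions bind cells through E-cadherin and the catenins, and desmosomes bind them through desmosomal cadherins, plakoglobin, plakophilins and desmoplakin, which anchors keratin filaments. In colon epithelium these structures make up the barrier between gut contents and tissue.

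Library totals ran from 18283862 to 22736172 reads. IDO1 itself had 0, 2, 3451 and 2440 reads, which matches the labels. Levels below are TMM-scaled CPM, the reads of a gene relative to the library's total times its TMM factor (0.938, 1.058, 1.004 and 1.004). They can be compared between libraries for 1 gene but not between genes, since amplicons differ in yield. Counts of genes past 1.5-fold use the log2 ratio of scaled CPM plus 1, which lies nearer to 0 than the plain ratio for genes of low level. Plain ratios carry 95% intervals of counting error only, with each read taken as independent, and a ratio compares 2 libraries, not 2 conditions. Because this is bulk RNA, fewer cells of a type and less RNA per cell cannot be told apart. WT-indole was unlike the other 3 libraries: of 8397 genes with a mean of at least 10 CPM, 34.3% were highest and 43.7% were lowest in it. Among markers of colon epithelium, the epithelial keratins KRT8, KRT18 and KRT19 and the intestinal factor CDX2 were present in every library. The brush border gene VIL1 had at most 2 reads, and the colon antigen GPA33 and the intestinal factor CDX1 had 0 reads in every library. The leukocyte marker PTPRC also had 0 reads throughout, and the leukocyte and endothelial lists summed to 2.15 to 3.36 and 3.76 to 4.86 scaled CPM. The fibroblast list summed to 75.0 to 98.6 scaled CPM, of which the collagen gene COL1A1 made up 73.8 to 97.1.

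Of the 30 members, 24 had a mean of at least 10 CPM over the 4 libraries. The other 6 were TJP1, DSC3, CTNND1, CLDN23, CLDN1 and CLDN2, which are given by their reads. In RefSeq, 9 members have a named pseudogene, namely TJP1, OCLN, CXADR, CLDN7, CTNNA1, PVRL2, PKP2, PKP4 and PERP. Whether their amplicons also read such copies is not known, so those values are uncertain to that extent. PVRL1 and PVRL2 are the older symbols of NECTIN1 and NECTIN2. In gene order, 3 pairs of members are direct protein-coding neighbours: CLDN3 and CLDN4 on chromosome 7, MARVELD2 and OCLN on chromosome 5, and DSC3 and DSC2 on chromosome 18.

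Upstream sequence is shown for 3 members with contrasting patterns in the results that follow: TJP1, which had the highest ratio of indole to DMF in wild type, CLDN3, which was high in WT-indole and low in both IDO1 libraries, and CLDN7, which was low in the IDO1 line. The sequences are RefSeq's (GRCh38.p14), all on the minus strand and printed 5′ to 3′, and were cut where a GENCODE exon begins. Capitals mark a match to CAGGTG, the E-box bound by ZEB and SNAI repressors, or to TNGCGTG, the core of the response element of AHR, the receptor that binds indoles. A match on the opposite strand appears as its reverse complement. The distal TJP1 start has chr15:29969050-29969299 upstream of it and an inner start has chr15:29821549-29821729, while the CLDN3 and CLDN7 stretches are chr7:73770271-73770520 and chr17:7263214-7263463. Another TJP1 stretch, chr15:29820675-29820924, held 0 matches and is not shown.
TJP1 distal start: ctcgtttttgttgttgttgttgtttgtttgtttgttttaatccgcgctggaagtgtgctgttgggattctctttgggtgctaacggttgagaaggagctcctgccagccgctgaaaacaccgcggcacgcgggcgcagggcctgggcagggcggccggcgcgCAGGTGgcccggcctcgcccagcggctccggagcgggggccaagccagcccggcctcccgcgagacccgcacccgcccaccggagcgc
TJP1 inner start: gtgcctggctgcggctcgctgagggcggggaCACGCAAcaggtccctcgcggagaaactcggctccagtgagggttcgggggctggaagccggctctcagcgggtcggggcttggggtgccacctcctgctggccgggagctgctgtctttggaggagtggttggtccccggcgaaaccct
CLDN3: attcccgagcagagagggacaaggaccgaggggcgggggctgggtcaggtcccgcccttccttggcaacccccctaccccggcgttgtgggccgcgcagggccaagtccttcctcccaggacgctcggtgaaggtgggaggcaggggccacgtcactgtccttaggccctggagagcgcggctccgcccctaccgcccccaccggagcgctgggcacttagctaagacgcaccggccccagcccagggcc
CLDN7: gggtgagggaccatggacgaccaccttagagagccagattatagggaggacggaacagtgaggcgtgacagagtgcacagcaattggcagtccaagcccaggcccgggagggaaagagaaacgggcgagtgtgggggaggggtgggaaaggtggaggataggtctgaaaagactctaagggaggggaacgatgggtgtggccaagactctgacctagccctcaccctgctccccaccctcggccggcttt
Over the 250 bases before each annotated start, 20 members had 32 windows. CAGGTG was found on either strand in 8 of these 32 windows (25%), against 17.5% of all 35116 windows in the table, and in 7 members (CLDN7, DSC2, DSG2, DSP, JUP, OCLN and TJP1). CLDN7 held 4 of these matches, all before its other annotated start. TNGCGTG was found in 1 member window (3.12%, TJP1) against 4.52% of all windows, and AACCNGTT, the motif of the epithelial GRHL factors, in 1 (3.12%, CGN) against 1.49%. The windows of 1 gene can overlap, and a match is only a run of letters.

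The comparison of indole with DMF in wild type cells addressed the response of the unmodified line to a bacterial metabolite. Most tight junction genes and E-cadherin were higher with indole, whereas the plakophilins PKP3 and PKP4 of the desmosome were lower. All 11 tight junction members past the level filter were above 0 on the log2 scale, with a median log2 ratio of 0.27, against -0.05 over all genes. The adherens junction median was 0.15 over 5 genes and the desmosome median 0.03 over 8. With library totals these 3 medians were 0.44, 0.33 and 0.20, against 0.12 over all genes. In all, 19 of the 24 members were above 0, where 45.1% of all genes were, or 22 against 61.2% with library totals. The same 19 were highest in this library among the 4, and 3 were lowest in it (CTNNA1, PKP3 and PKP4). At 1.5-fold, 2 members were higher (CLDN4 and CDH1) and 1 was lower (PKP4), against 6.03% and 9.84% of all genes. Scaling by library totals moved the members to 5 higher and 0 lower, and the split of all genes from 506 higher and 826 lower to 1057 and 419. The direction of CTNNA1, JUP and DSG2 flipped with that scaling.

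**Figure D1:**
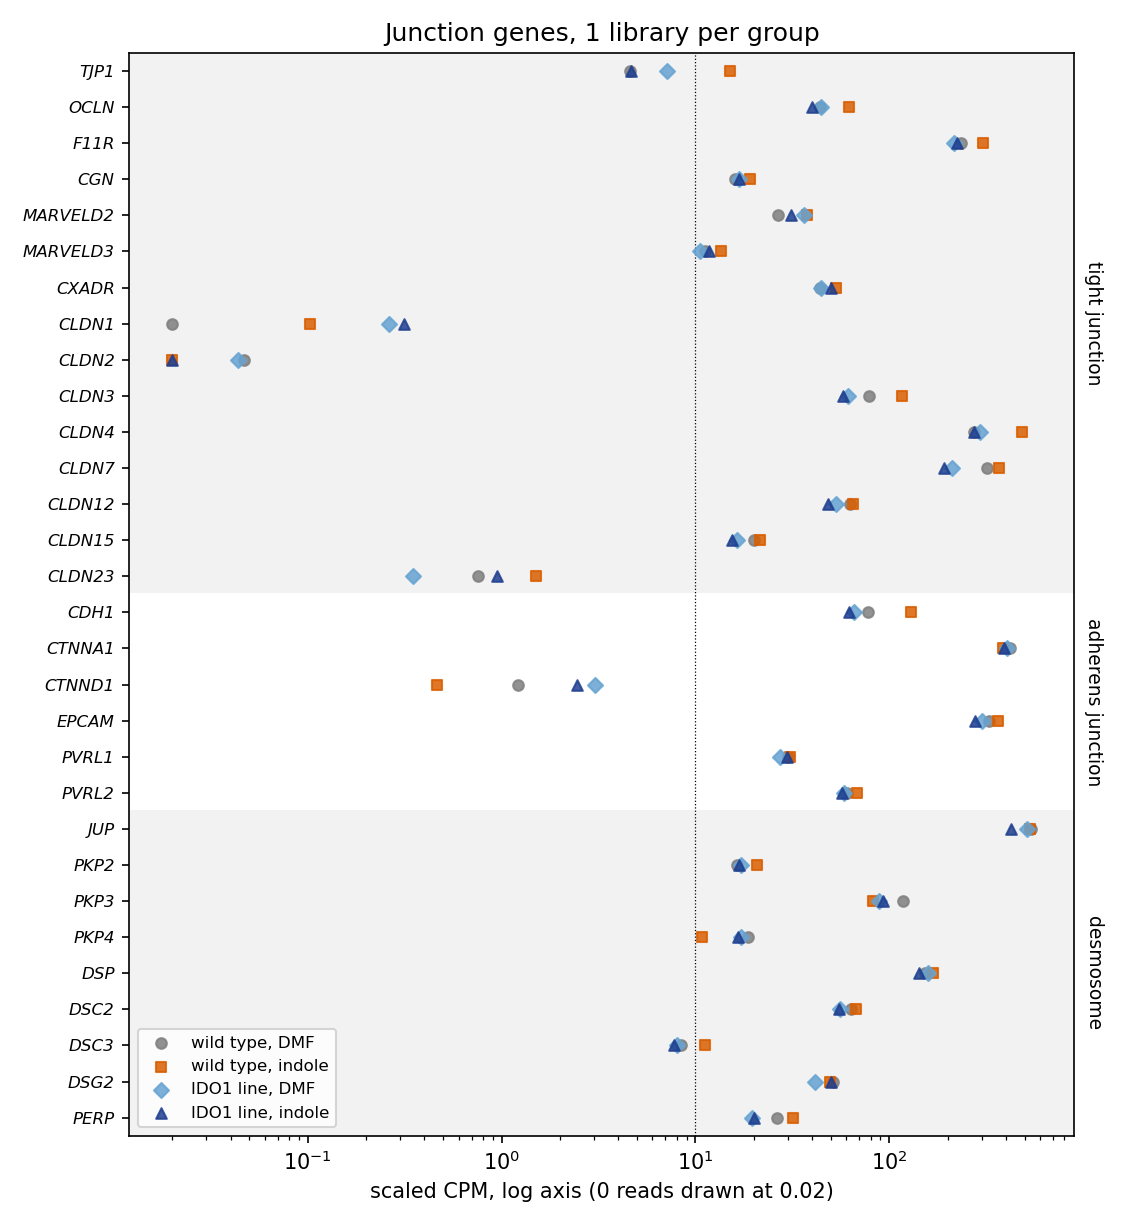
Scaled CPM of the 30 junction genes (rows) on a log axis, 1 point per library. The dotted line marks 10 CPM. The orange squares of WT-indole lie rightmost for 22 of the 30 genes, among them most tight junction genes and CDH1. They lie leftmost for PKP3, PKP4, CTNNA1 and CTNND1, with CLDN2 tied at 0 reads.

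The strand-forming claudins differed among themselves. CLDN4, a claudin that lowers permeability to cations, stood at 273 scaled CPM in WT-DMF, 483 in WT-indole, 292 in IDO1-DMF and 272 in IDO1-indole. Thus 3 libraries were close together and WT-indole was above them, 1.77-fold over its DMF control (1.71 to 1.83). Its neighbour CLDN3, also a sealing claudin, stood at 78.7, 116, 61.2 and 57.8 in the same order and was 1.48-fold higher with indole in wild type (1.38 to 1.57). Both libraries of the IDO1 line were below both of wild type for CLDN3, which was not so for CLDN4. CLDN7, a claudin that binds EPCAM, stood at 320, 370, 211 and 192, with a ratio of 1.16 with indole in wild type (1.12 to 1.20). CLDN12 and CLDN15, the latter a channel-forming claudin of the intestine, had ratios of 1.03 (0.955 to 1.12) and 1.07 (0.933 to 1.23), and both intervals include 1. The remaining claudins were barely read. CLDN1 had 0, 2, 6 and 6 reads, the pore-forming CLDN2 had 1, 0, 1 and 0, and CLDN23 had 16, 29, 8 and 18.

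The MARVEL proteins, which span the membrane 4 times and sit in the strands, differed by smaller amounts. OCLN (occludin) stood at 44.1, 62.2, 44.6 and 39.8 scaled CPM. MARVELD2 (tricellulin, found where 3 cells meet) stood at 26.8, 37.5, 36.5 and 31.0. Both were about as much higher with indole in wild type, 1.41-fold (1.29 to 1.54) and 1.40-fold (1.25 to 1.57). For MARVELD2, unlike OCLN, IDO1-DMF lay near WT-indole. MARVELD3 had a ratio of 1.22 (1.02 to 1.46).

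Adhesion molecules and scaffolds of the tight junction completed the group. F11R (JAM-A, an immunoglobulin-type adhesion molecule) stood at 233, 304, 215 and 224 scaled CPM, 1.30-fold higher with indole in wild type (1.25 to 1.35). CXADR, the adhesion molecule used as a receptor by coxsackievirus and adenovirus, had a ratio of 1.21 (1.11 to 1.32), and the cytoplasmic linker CGN (cingulin) 1.20 (1.03 to 1.39). TJP1, which encodes the scaffold ZO-1, had 98, 290, 163 and 89 reads, or 4.61, 15, 7.14 and 4.65 scaled CPM. Its level in WT-indole was 3.25-fold that with DMF (2.58 to 4.13), the largest ratio among the 28 members with more than 10 reads in some library. The scaled CPM of all tight junction members summed to 1130, 1560, 1010 and 964, highest in WT-indole. CLDN4, CLDN7 and F11R made up 71.1% to 74.1% of this sum, so it mainly follows those 3 amplicons.

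In the adherens junction, CDH1 (E-cadherin) stood at 77.2 scaled CPM in WT-DMF, 130 in WT-indole, 65.9 in IDO1-DMF and 62.0 in IDO1-indole. It was 1.69-fold higher with indole in wild type (1.58 to 1.79). The catenins did not go with it. CTNNA1 (alpha-catenin, which links the complex to actin) stood at 421, 387, 404 and 390, a ratio of 0.919 (0.891 to 0.948) with indole in wild type. CTNND1 (p120-catenin, which stabilises cadherin at the membrane) had only 26, 9, 69 and 47 reads. EPCAM, an epithelial adhesion molecule, had a ratio of 1.11 (1.08 to 1.15), and the nectins PVRL1 and PVRL2 had 1.03 (0.917 to 1.15) and 1.13 (1.05 to 1.23). Beta-catenin (CTNNB1), which is no member, had a ratio of 0.862 (0.833 to 0.891).

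The desmosome was mixed. PKP4, an armadillo protein of desmosomes and adherens junctions, stood at 18.7, 10.8, 17.2 and 16.5 scaled CPM and was 1.73-fold lower with indole in wild type (1.46 to 2.06). PKP3, which tethers desmosomal cadherins to desmoplakin, stood at 117, 82.2, 88.7 and 92.8 and was 1.42-fold lower (1.34 to 1.52). For PKP4 WT-indole lay alone below the other 3, whereas for PKP3 WT-DMF lay alone above them. The third plakophilin, PKP2, went the other way, with 16.3, 20.8, 17.2 and 16.7 scaled CPM and a ratio of 1.28 (1.10 to 1.48). The cadherins DSC2 and DSG2 had ratios of 1.06 (0.980 to 1.14) and 0.961 (0.881 to 1.05), and DSC3, with 179, 217, 184 and 148 reads, 1.33 (1.09 to 1.63). JUP (plakoglobin) and DSP (desmoplakin) had ratios of 0.980 (0.954 to 1.01) and 1.10 (1.05 to 1.16). PERP, a p53 target needed for desmosome assembly, had 1.22 (1.09 to 1.37).

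**Figure D2:**
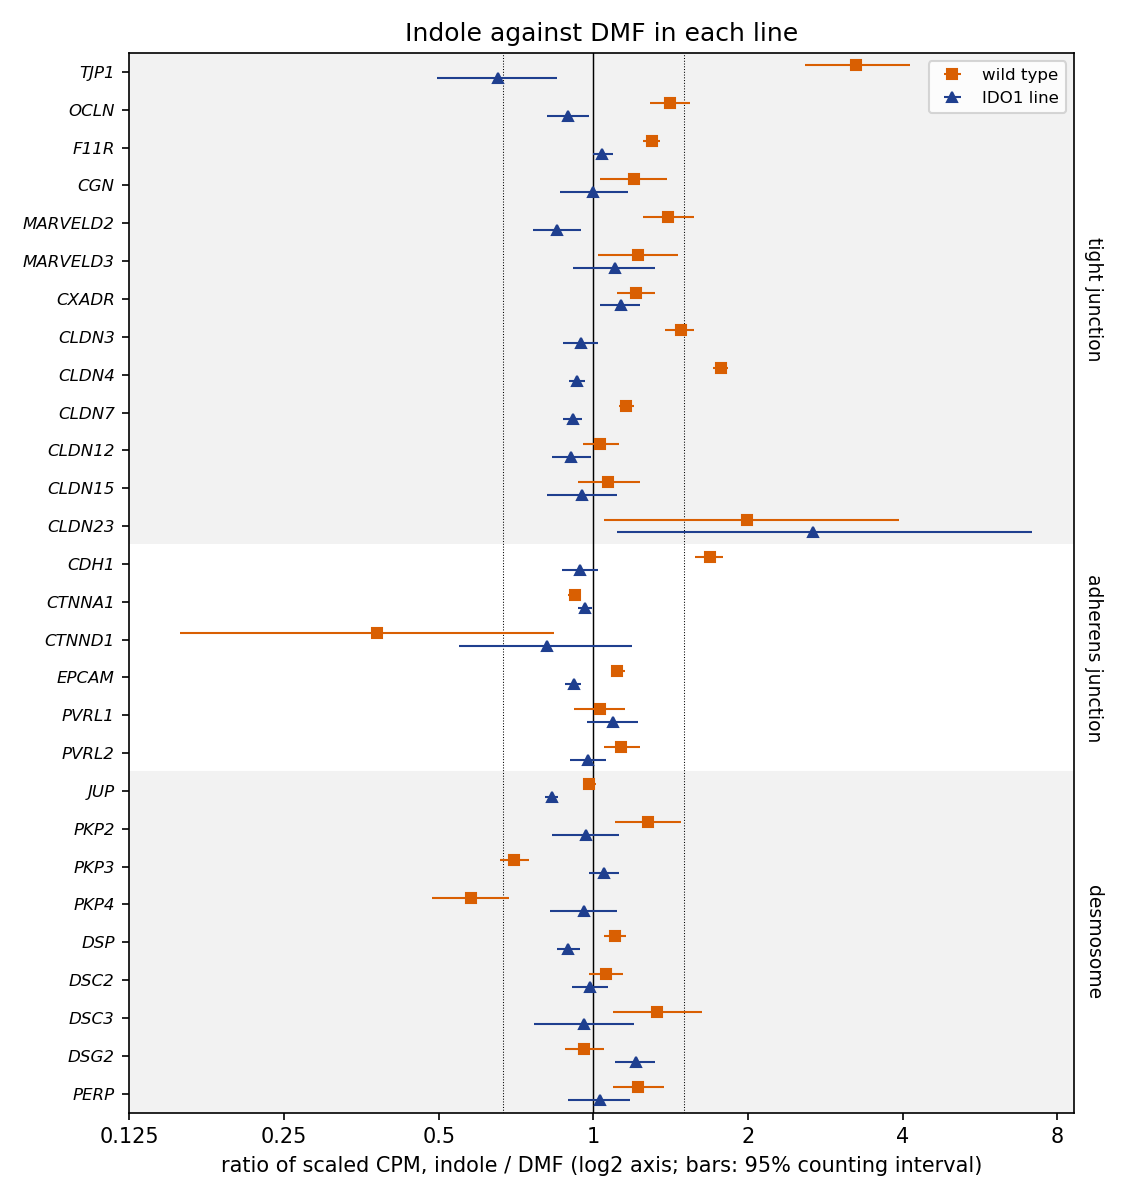
Ratio of scaled CPM with indole to that with DMF for 28 junction genes, in wild type (squares) and in the IDO1 line (triangles), on a log2 axis with 95% intervals of counting error; dotted lines mark 1.5-fold. CLDN1 and CLDN2 are left out for lack of reads. TJP1, CLDN4 and CDH1 lie at 3.25, 1.77 and 1.69 in wild type and at or below 1 in the IDO1 line.

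Indole against DMF in the IDO1 line asked for the same response when IDO1 is overexpressed. Here 0 of the 24 members were 1.5-fold higher or lower, where 0.393% and 0.274% of all genes were, and 8 were above 0, against 48.3% of all genes. Log2 ratios lay between -0.27 (JUP) and 0.27 (DSG2), with a median of -0.06. JUP was 1.21-fold lower (1.17 to 1.24), and DSG2 was 1.21-fold higher (1.10 to 1.32). CLDN4 had a ratio of 0.931 (0.897 to 0.965), CLDN3 0.945 (0.872 to 1.02) and CDH1 0.940 (0.870 to 1.02). TJP1, below the level filter, was 1.54-fold lower (1.18 to 2.01). PKP4 and PKP3 had ratios of 0.959 (0.824 to 1.11) and 1.05 (0.981 to 1.12). CLDN23 was the member with the highest ratio, 2.68 (1.11 to 7.13), which rests on 8 and 18 reads.

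Set beside each other, the indole log2 ratio of the IDO1 line was below that of wild type for 19 of 24 members, against 46.2% of all genes, and for all 11 tight junction members. The difference, IDO1 line minus wild type, was -0.92 for CLDN4, -0.83 for CDH1, -0.70 for MARVELD2, -0.65 for OCLN and -0.64 for CLDN3. PKP4 and PKP3 had differences of 0.68 and 0.57. Of the 24, 0 differed by at least 1 in either direction, where 2.64% of all genes were higher and 1.67% lower by that much. With library totals, CLDN4 (-1.10) and CDH1 (-1.01) passed that size, against 3.53% of all genes lower and 1.29% higher. TJP1, at -2.04, exceeded it from below the level filter. Whether the responses of the lines differ was not tested, since each group has 1 column of counts.

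The remaining pair of comparisons set the IDO1 line against wild type, which asked how the overexpressing line differs with and without indole. In DMF the differences were small and mostly downward. Of 24 members, 7 were above 0, against 48.4% of all genes, with a median log2 ratio of -0.12, against -0.01 over all genes. With library totals 11 members were above 0, against 5685 of 8409 genes, and the medians were -0.02 and 0.09. MARVELD3, CTNNA1, PVRL2 and JUP flipped with that scaling. At 1.5-fold, 0 were higher and 1 was lower (CLDN7), against 0.738% and 1.13% of all genes. With library totals 0 members were past 1.5-fold (CLDN7 at a log2 ratio of -0.50), and the split of all genes was 120 higher and 55 lower in place of 62 and 95. CLDN7 was 1.52-fold lower (1.46 to 1.57). PERP was 1.34-fold lower (1.18 to 1.52), PKP3 1.32-fold (1.24 to 1.40), CLDN3 1.28-fold (1.20 to 1.38) and CDH1 1.17-fold (1.09 to 1.26). Upward, MARVELD2 had a ratio of 1.36 (1.22 to 1.52), TJP1 1.55 (1.20 to 2.01) and CTNND1 2.47 (1.56 to 4.05), the last from 26 and 69 reads.

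In indole, all 11 tight junction members stood lower in IDO1-indole than in WT-indole. Of the 24, 4 were above 0, against 53.7% of all genes, with a median of -0.29. At 1.5-fold 6 were lower (CLDN3, CLDN4, CLDN7, OCLN, CDH1 and PERP) and 0 higher, against 8.6% and 11.5% of all genes, or 942 and 736 genes in place of 722 and 965 with library totals. CDH1 was 2.10-fold lower (1.96 to 2.25), CLDN3 2.01-fold (1.87 to 2.16), CLDN7 1.92-fold (1.85 to 2.0) and CLDN4 1.78-fold (1.72 to 1.84). PKP4 was 1.53-fold higher (1.28 to 1.83) as a plain ratio, but not past 1.5-fold with 1 CPM added, and CTNND1 5.28-fold higher (2.56 to 12.3). WT-indole enters both this comparison and the one of indole in wild type. With WT-DMF as the reference in its place, 1 member was 1.5-fold lower, CLDN7 at 1.66-fold (1.60 to 1.73) and the median was -0.13. The share and median of all genes are not given for that pair, so this count has no background beside it. CDH1 was then 1.25-fold lower (1.15 to 1.34), CLDN3 1.36-fold (1.26 to 1.47) and TJP1 had a ratio of 1.01 (0.749 to 1.36).

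**Figure D3:**
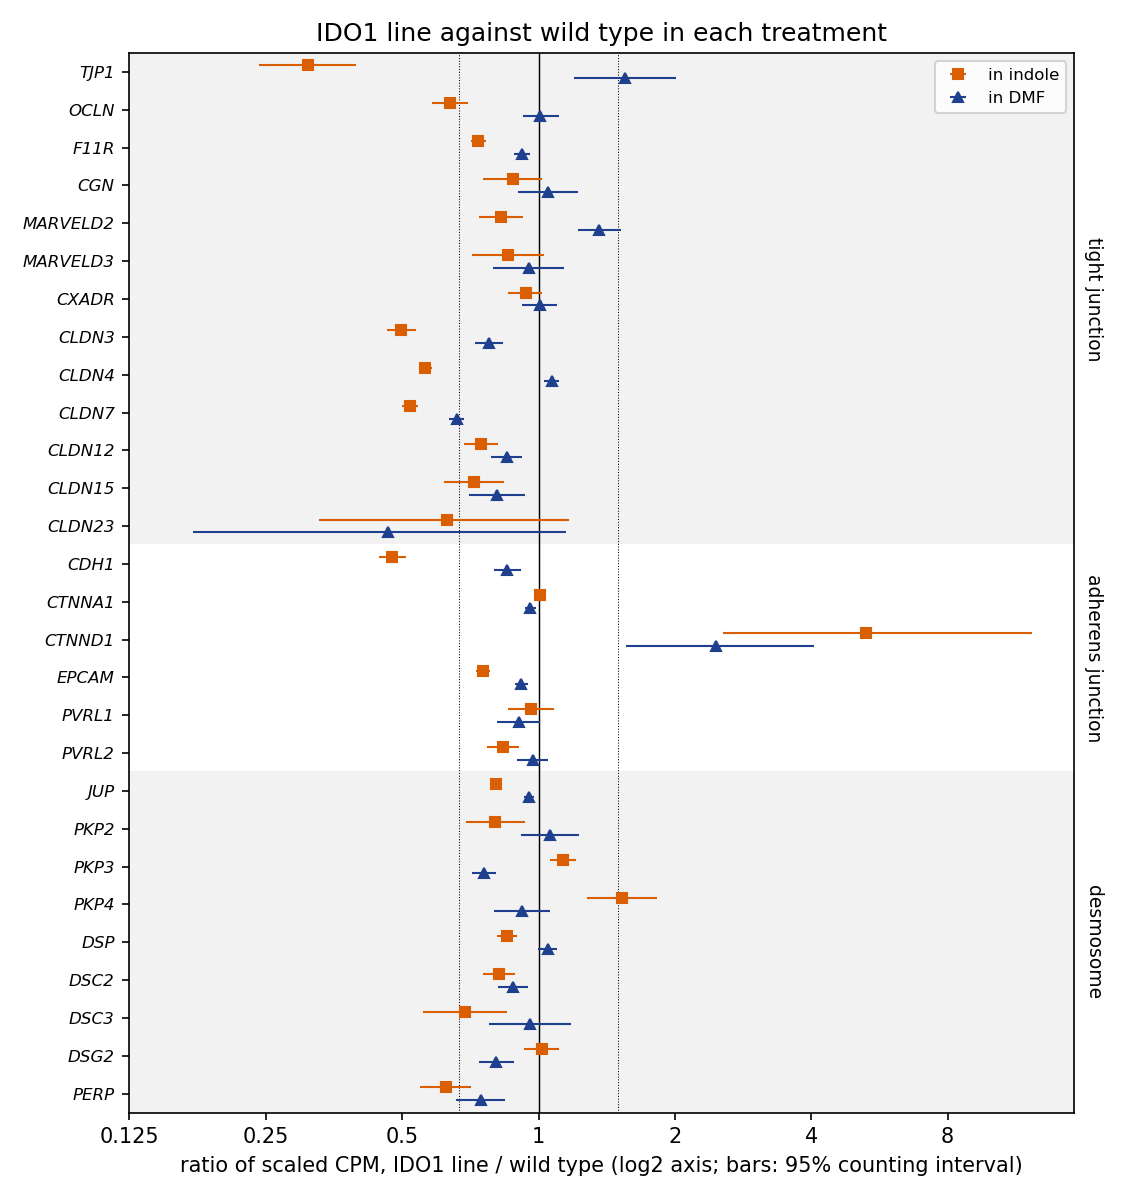
Ratio of scaled CPM in the IDO1 line to that in wild type for 28 junction genes, in indole (squares) and in DMF (triangles), on a log2 axis with 95% intervals of counting error; dotted lines mark 1.5-fold. CLDN7 and CLDN3 lie below 1 and CTNND1 above 1 in both treatments, whereas TJP1 lies on opposite sides.

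Additive fits over all 4 libraries gave the tests the design allows. With edgeR's quasi-likelihood test, 28 members were tested. For indole across both lines, 0 rose and 0 fell after Benjamini-Hochberg adjustment, as for all 13122 genes (0%). At an unadjusted p under 0.05 there were 0 members, against 3.41% of genes. DESeq2 gave 0 members on both counts, where 129 of 16748 genes had an unadjusted p under 0.05. For the line across both treatments, 0 members rose and 0 fell, against 2.03% and 0.419% of genes, and DESeq2 also called 0. At an unadjusted p under 0.05 edgeR gave 5 of 28 members, against 9.99% of genes. These were CTNND1, CLDN7, CLDN3, CDH1 and PERP. DESeq2 gave 4 of 29 members, against 720 of 15145 genes.

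CTNND1 came nearest, with a log2 fold change of 1.75 (SE 0.493) and an edgeR adjusted p of 0.0543. CLDN7 had -0.78 (SE 0.243, edgeR adjusted p 0.107) and CLDN3 -0.69 (SE 0.227, adjusted p 0.146). CDH1 had -0.66 (SE 0.234, edgeR adjusted p 0.214) and PERP -0.56 (SE 0.232, adjusted p 0.351). With library totals CTNND1 (edgeR adjusted p 0.0321) and CLDN7 (0.0375) passed, and with no filter on low counts CTNND1 did (0.0191). For CTNND1, DESeq2 gave an adjusted p of 0.900. The fit has 1 residual degree of freedom in which the difference of the indole responses between lines and library noise cannot be told apart.

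Other junction genes, from lists written with earlier results known, were compared for indole in wild type, where 45.1% of all genes were above 0 (61.2% with library totals). Of 16 further tight junction genes past the level filter, 13 were above 0 (median 0.19), or 14 (0.36) with library totals, led by the scaffolds MAGI1, 1.67-fold higher (1.55 to 1.80), and MPP5, 1.48-fold (1.30 to 1.70). Of 13 further adherens junction genes, 10 were above 0 (median 0.16), or 12 (0.33) with library totals. The adhesive phosphatase PTPRM was 1.70-fold higher (1.41 to 2.05) and the LIM protein AJUBA 1.28-fold (1.16 to 1.41). PTPRM stood at 9.03, 15.3, 9.34 and 7.37 scaled CPM, so it is among the 13 only through WT-indole, where it is highest. The plakins PPL and EVPL, which bind desmosomes and keratin, stood at 50 and 153 scaled CPM with DMF and 100 and 241 with indole. They were 2.0-fold (1.86 to 2.16) and 1.57-fold (1.5 to 1.65) higher, and in the IDO1 line their ratios were 0.991 (0.902 to 1.09) and 0.893 (0.844 to 0.945).

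**Figure D4:**
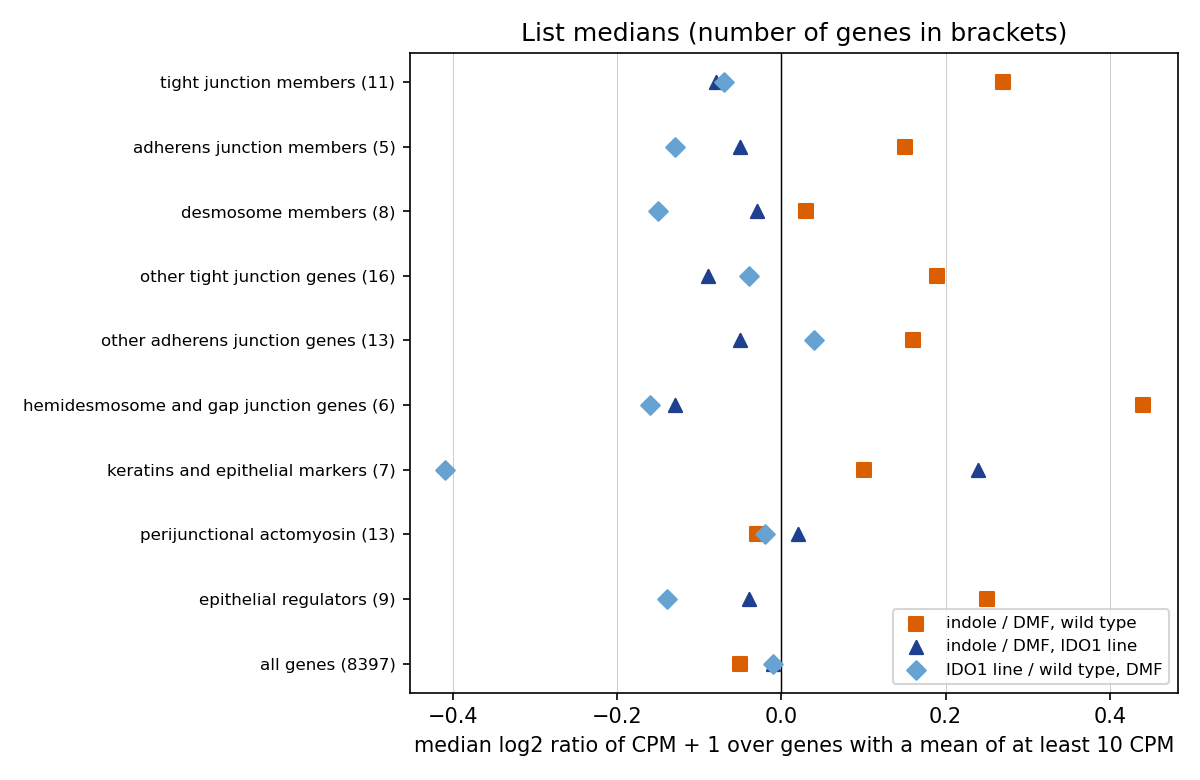
Median log2 ratio of each gene list in 3 comparisons, with the number of genes past the level filter in brackets and all genes in the last row. For indole in wild type (squares) the tight junction members lie at 0.27, the adherens junction members at 0.15 and the desmosome members at 0.03, against -0.05 for all genes.

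Genes of other cell states were read in the same libraries. With the line, 2 of 6 tested EMT regulators rose in edgeR's quasi-likelihood test, where 2.03% of all genes did. These were ZEB2 with 0, 0, 27 and 22 reads and TCF4 with 0, 0, 66 and 45. Both passed the filter on low counts only through the IDO1 libraries, where they are high, so this count favours a rise. The E-box repressor SNAI1 had 640, 479, 409 and 364 reads, and SNAI2 had 4, 9, 29 and 30. ZEB1 had 94, 75, 150 and 127 reads, TWIST1 107, 93, 177 and 122, TWIST2 0, 0, 0 and 3, and PRRX1 0, 0, 0 and 1. Also rising with the line were CDH2 (N-cadherin, 1, 0, 65 and 68 reads), the junctional adhesion molecule JAM3 (0, 0, 65 and 59) and the gap junction protein GJA1 (33, 35, 273 and 254). On the mesenchymal list VIM, SPARC, FN1 and MMP2 rose (4 of 9 tested) and 0 fell. There 5 of the 9 had a log2 fold change above 0, while COL6A1, S100A4 and COL6A2 had -0.52, -0.51 and -0.48. Of 9 tested genes listed as markers of embryonic kidney lines, 4 rose (SALL1, NEFM, NEFL and WT1, each with 0 or 1 read in either wild type library). These 4, like CDH2, JAM3 and MMP2, entered the test only through the IDO1 libraries. The shares of these lists that rose therefore cannot be set against the share of all genes. The embryonic kidney list summed to 101, 63.2, 109 and 131 scaled CPM, most of it from GAL, which had 91.4, 53.2, 85.1 and 109. Their part in the junction values was not tested.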

How the data were processed

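The authors deposited raw read counts per amplicon target, 1 column per sample, per the file headers; hg19 is the build in the submitters' processing notes, and the aligner is not given in the sources used here. Libraries were made with an amplicon transcriptome kit, per the labels' protocols. The 10 spike-in targets had 0 reads and were dropped. The counts were scaled by TMM (edgeR 4.0.16). The log2 ratio used CPM plus a pseudocount of 1, for genes with a mean of at least 10 CPM over the 4 libraries. Intervals are exact Clopper-Pearson (95%, SciPy 1.17.1), concern counting error only and treat each read as an independent draw. PCR reads are not independent molecules, so these intervals can be too narrow even for counting error. Additive fits (line plus treatment) used edgeR's quasi-likelihood test on the 13122 genes kept by filterByExpr, with Benjamini-Hochberg adjustment and a threshold of 0.05. SE is the fold change over the square root of F. On simulated counts the fit called 88 of 99 genes given a log2 change of 1, with 13 false calls. Those counts held no line effect and the same indole response in both lines, so they cannot check the fit where responses differ. DESeq2 1.42.0 was an alternative. Whether cultures were separate is not stated, so a p-value reflects only how these 4 libraries spread, which may be technical.

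The members and all gene lists were chosen with earlier results of these data known. Named besides the members were IDO1, all EMT regulators and, per further list, genes past an additive fit and the 2 largest wild type indole ratios. CTNNB1, KRT15, EHF, OVOL2, S100A4, other genes named only for cell type and the motif TNGCGTG were added after values were seen. Of 204 listed genes, 6 were not matched by symbol and are not analysed here. Some genes that the rule names are not reported here.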

Additional observations from a re-analysis of the deposited data

How the results depend on the processing

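No paired analysis was possible because each group has 1 library and the labels carry no replicate numbers. Leaving a library out of an additive fit leaves 0 residual degrees of freedom. Of 153 counts and medians, 126 stayed within the limits set (1.5 times for a count, the counting interval for a median). Of 844 single-member values, 754 stayed within the counting interval and 90 moved, 34 of them with library totals. A change of direction was counted only for members at least 1.5-fold apart in the main setting, of which 0 had one. For indole in wild type, library totals gave 5 members 1.5-fold higher, 0 lower and a median of 0.37, and totals without the 10 most abundant genes gave 5, 0 and 0.38. With a mean of at least 1 CPM 2 were lower, and with at least 50 CPM 0, as other genes were counted. For the IDO1 line in DMF, both kinds of totals left 0 lower, and 1 member was higher once genes from 1 CPM were counted. In indole, a pseudocount of 0.25 and a minimum of 1 CPM each gave 1 higher, and wild type with DMF as the reference, chosen after seeing the data, gave 1 lower and a median of -0.13. The median difference of the indole responses was -0.24, or -0.41 with library totals. In the additive indole fit, 6 genes rose with library totals, 9 with no filter (and 1 fell) and 5 with at least 10 CPM in 2 libraries, none of them members. In the line fit, 1 member rose and 1 fell with library totals, and 1 rose with no filter. Over all genes, 267 rose and 55 fell, against 74 and 12 in DESeq2, 26 rising with at least 10 CPM in 2 libraries and 113 falling with no filter. The cause of these shifts was not tested beyond the change in the genes counted. At this depth CLDN1, CLDN2 and CLDN23 are too rarely read for a comparison.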

Other observations

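Structures next to the junctions were read in the same libraries. On a list of hemidesmosome and gap junction genes, 5 of the 6 past the level filter were above 0 with indole in wild type (median log2 ratio 0.44), where 45.1% of all genes were. The integrin ITGB4, which anchors epithelium to laminin, was 1.44-fold higher (1.41 to 1.47). In the IDO1 line 0 of these 6 were above 0. Genes of the actomyosin belt had a median of -0.03 over 13 genes, near the -0.05 of all genes. With library totals these medians were 0.14 and 0.12. Among the actomyosin genes RHOA, the GTPase that drives contraction, was 1.62-fold lower with indole in wild type (1.57 to 1.67), and the myosin light chain MYL12B 1.5-fold (1.45 to 1.56).

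Epithelial regulators, which here are transcription factors and splicing factors, had a median of 0.25 over 9 genes with indole in wild type. Of these 9, 6 were above 0, against 45.1% of all genes, whose median was -0.05. With library totals 8 were above 0, against 61.2%, and the medians were 0.42 and 0.12. KLF4, a factor of differentiated colon epithelium, was 2.15-fold higher (1.96 to 2.36) and OVOL1, a repressor of mesenchymal genes, 1.33-fold (1.20 to 1.49). Downward, EHF had a ratio of 0.812 (0.771 to 0.854). OVOL2, below the level filter, had 0.380 (0.236 to 0.596) from 78 and 27 reads. On the keratin list KRT80 and KRT7 were 8.55-fold (6.89 to 10.7) and 6.72-fold (5.76 to 7.89) higher, while KRT15 was 1.98-fold lower (1.76 to 2.23) and KRT19 1.41-fold (1.39 to 1.43). KRT80, at 4.42, 37.8, 6.62 and 8.1 scaled CPM, passed the level filter only through WT-indole. The ephrin receptor EPHB2 was 1.64-fold higher (1.49 to 1.80), and the collagen VI chains COL6A1 and COL6A2 1.73-fold (1.62 to 1.84) and 1.64-fold (1.55 to 1.74). GAL was 1.72-fold lower (1.59 to 1.85). Each of these values rests on the same pair of libraries.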
